A study of Mus musculus with 9 samples.

Results

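The 9 genes described here make, carry, break down and read retinoic acid: Rdh10, Dhrs3, Aldh1a1, Aldh1a2, Aldh1a3, Crabp2, Cyp26b1, Rara and Rarb. They were taken by gene name from a table of 31167 genes, and the set was chosen by the fall of Dhrs3 FPKM between the Sham libraries and those after hypoxia and reoxygenation (H/R). That comparison is therefore given as a description with no test. RNA was sequenced from mouse primary renal tubular epithelial cells of C57BL/6 kidney in 3 groups of 3 libraries. Sham cells were untreated. H/R cells spent 6 h at 1.0% oxygen without glucose and then 18 h in complete medium at normal oxygen, a culture model of ischemia and reperfusion. EGR1OV cells were transfected with an overexpression plasmid for Egr1, a zinc finger transcription factor, and had no H/R. The study's plasmid for cultured cells drives Egr1 from the CMV promoter, which is active in many cell types, and the animals' age is not given in the sources used here. No group given an empty plasmid was among those compared, so transfection and Egr1 cannot be told apart. The labels do not say whether libraries came from separate cultures or animals, so p-values measure only the spread between these libraries.

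Retinoic acid is made from vitamin A in a pair of steps. Retinol is oxidised to retinal by RDH10, a step that DHRS3 runs in reverse, and retinal is then oxidised to retinoic acid by the ALDH1A enzymes. CRABP2 carries retinoic acid towards the nucleus, CYP26 enzymes break it down, and the receptors RARA and RARB bind DNA with an RXR partner, often at a direct repeat of a short motif. Dhrs3, Rarb and the Cyp26 genes are themselves known to be induced by retinoic acid in many cells, and in the kidney the pathway is best known for its part in development of the ureteric tree and nephron.

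Promoter sequence is shown for the 3 members that stood lower in H/R than in Sham by the largest amounts, with Rarb printed because its window holds a direct repeat, and Dhrs3 and Cyp26b1 because the values below turn on them. Each run is the 250 bases before a transcription start in RefSeq on build GRCm38.p6, written 5′ to 3′ on the gene's own strand. Capitals mark a direct repeat of a 6-base motif with 5 bases between the copies. The Rarb window is chr14:16575477-16575726 (minus strand), the Dhrs3 window chr4:144892577-144892826 (plus strand) and the Cyp26b1 window chr6:84593811-84594060 (minus strand).
Rarb: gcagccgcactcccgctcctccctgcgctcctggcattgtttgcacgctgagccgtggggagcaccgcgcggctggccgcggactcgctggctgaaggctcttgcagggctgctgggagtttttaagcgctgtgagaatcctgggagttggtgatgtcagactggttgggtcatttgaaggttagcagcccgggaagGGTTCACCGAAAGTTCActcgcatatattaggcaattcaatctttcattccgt
Dhrs3: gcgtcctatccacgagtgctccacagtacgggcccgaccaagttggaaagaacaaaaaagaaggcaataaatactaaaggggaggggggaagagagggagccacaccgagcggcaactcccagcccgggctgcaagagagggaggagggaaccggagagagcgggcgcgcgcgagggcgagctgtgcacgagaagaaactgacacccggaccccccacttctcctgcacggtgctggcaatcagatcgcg
Cyp26b1: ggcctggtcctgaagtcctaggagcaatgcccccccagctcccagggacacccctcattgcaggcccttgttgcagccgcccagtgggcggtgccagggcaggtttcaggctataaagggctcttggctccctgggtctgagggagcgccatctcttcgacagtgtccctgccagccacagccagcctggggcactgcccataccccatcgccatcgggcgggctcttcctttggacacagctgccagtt
The repeat in Rarb, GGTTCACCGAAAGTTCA, lies from 53 to 37 bases before the start. The Rarb start lies inside the span of the gene in the table and not at its outer end. The same holds for Cyp26b1, whose gene in the table reaches 84593908, so the last part of its printed window lies inside that span. Dhrs3 has other annotated starts close by, and the window shown ends just before the start of the gene in the table.

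The motif search covered 300 bases around each start, on both strands, and 6 of the 9 members had an entry. Rdh10, Crabp2 and Aldh1a3 were not matched. A direct repeat was counted where 2 copies of a 6-base motif followed each other with 5 bases between them, each copy being AGGTCA or its variant GGGTCA, or else the motif AGTTCA or its variant GGTTCA. It was found in 32 of 32817 promoters (0.0975%), and Rarb was the 1 member with it. With 2 bases between the copies, 0.268% of promoters held a repeat and 0 of the 12 member windows did. A single AGGTCA was in 16.3% of promoters and in 1 member, Rara, from base 33 to base 38 after a start. The EGR1 motifs GCGTGGGCG and GCGGGGGCG were in 0.613% and 2.91% of promoters, and 0 of the 12 member windows held either. A match is a description of letters in these windows, and no match says only that these letters are not there.

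Levels are in FPKM (fragments per kilobase of transcript and unit of library depth), which is per length and can be compared between genes. The recovered depth of the libraries was 16183495 to 18383956 reads. Mean Egr1 was 6.40 FPKM for Sham, 7.88 for H/R and 42.6 for EGR1OV, so the EGR1OV libraries carried their label. All 7 general tubular epithelium markers listed averaged at least 0.5 FPKM, and their sum was 1889 to 1928 FPKM for Sham, 1745 to 1824 for H/R and 1231 to 1335 for EGR1OV. Krt8 (mean 1014 in Sham, 618 in EGR1OV) and Krt18 (685 and 412) make up most of that sum. Cdh16 was also lower in EGR1OV (24.3 and 19.6). Means of Epcam (76.2 and 100.4), Cdh1 (86.2 and 101.5), Pax2 (14.6 and 19.1) and Pax8 (13.1 and 13.5) were higher. Of the 7 proximal tubule markers, 4 (Slc22a6, Slc34a1, Slc5a2, Hnf4a) were under 0.5 FPKM in every library. Summed leukocyte markers (7 of 8 at 0.5 FPKM or more on average) were 139.7 to 143.9 FPKM for Sham, 116 to 123 for H/R and 22.1 to 26.5 for EGR1OV. Summed proximal tubule markers were 5.44 to 5.53, 4.87 to 5.29 and 1.94 to 2.21 FPKM in the same order, and summed smooth muscle markers (5 of 5) were 3148 to 3268, 2889 to 3099 and 1221 to 1301 FPKM. The 6 distal tubule and collecting duct markers in the table were all under 0.5 FPKM in every library. Their sums were 0.252 to 0.330, 0.0556 to 0.150 and 0.590 to 0.767 FPKM. Endothelial markers summed to 9.81 to 10.1, 9.79 to 10.1 and 6.76 to 7.43 FPKM, and podocyte markers to 20.1 to 21.9, 18.4 to 20.98 and 22.4 to 23.6 FPKM. Fibroblast markers summed to 32.8 to 34.5, 39.3 to 40.6 and 37.9 to 42.9 FPKM. Most of that sum was Col1a1 (means 21.1, 25.8 and 25.7) and Col1a2 (7.22, 9.28 and 10.2). Mean Col3a1 was also higher in H/R and EGR1OV (0.941, 1.17 and 1.10), but mean Pdgfrb was lower in both (4.20, 3.43 and 3.81). Pdgfra, Dcn and Lum were under 0.5 FPKM in every library. The part of these shifts in the results was not tested, and fewer cells of a type cannot be told apart from less RNA per cell.

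The members spanned a wide range of levels, and their order was nearly fixed at the top. In every group Aldh1a2 was highest, followed by Rdh10, Dhrs3 and Rara, and no neighbours among these 4 overlapped. In Sham the order went on with Cyp26b1, Rarb, Aldh1a3, Aldh1a1 and Crabp2, and of these neighbours only Rarb and Aldh1a3 overlapped. In H/R Aldh1a3 moved up to the place just below Rara, above Cyp26b1. At the bottom Crabp2 overlapped with both Rarb and Aldh1a1, which did not overlap with each other. In EGR1OV Cyp26b1, Aldh1a3 and Rarb overlapped with each other, and Crabp2 and Aldh1a1 stood below them. The higher members also rest on more reads. Recovered reads per library ran from 2504 to 3642 for Rdh10 but from 5 to 34 for Crabp2, so Crabp2 is the least precisely measured. All 9 members passed the filter on low values (0.5 FPKM or more on average over the 9 libraries), Crabp2 through its H/R libraries.

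**Figure D1:**
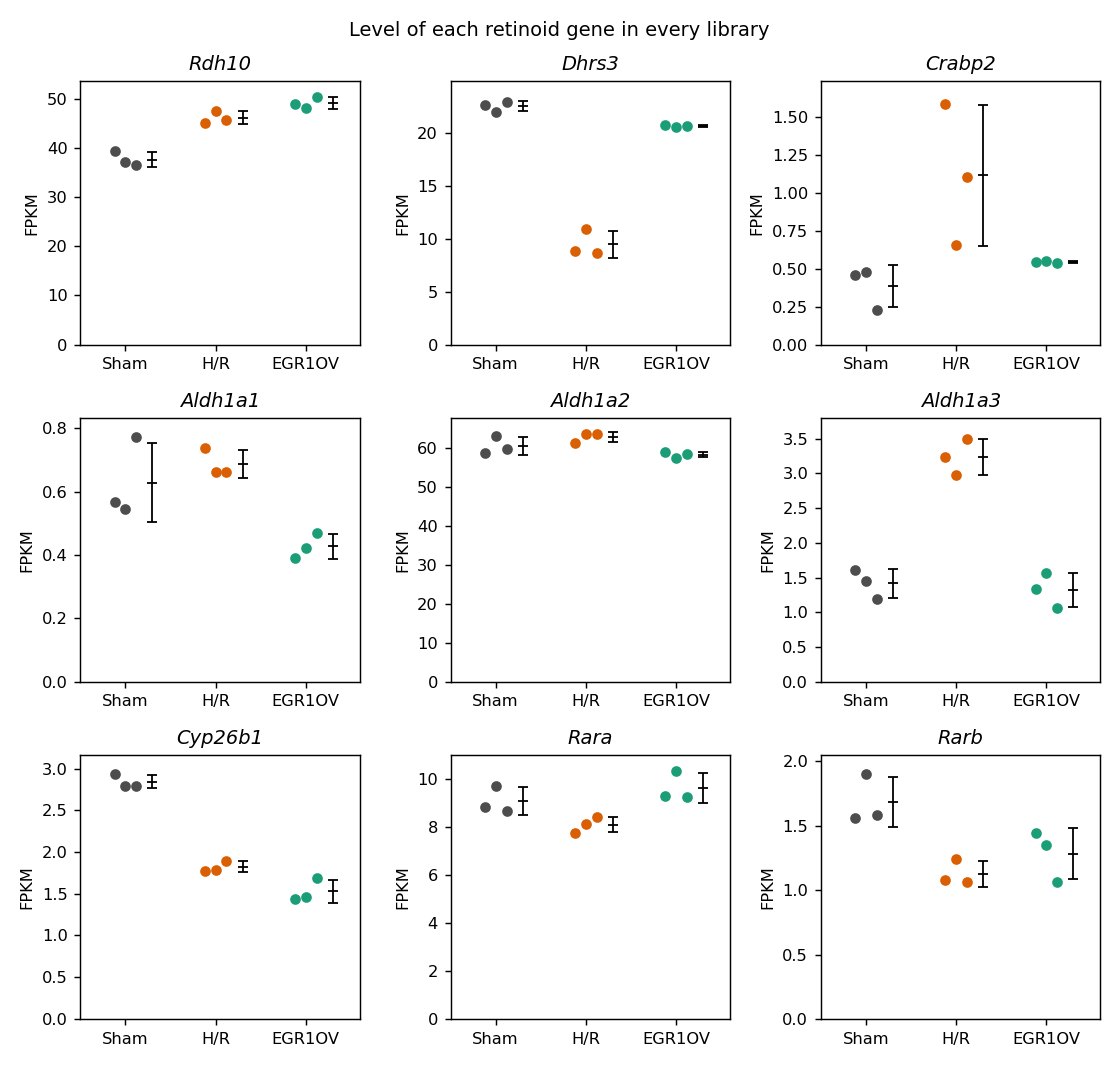
Level of the 9 genes in each library, with FPKM on the y axis from 0 and a separate scale for each gene. Coloured points are the 3 libraries of each group, and the black mark is the mean ± SD. The H/R libraries of Dhrs3 lie at 8.69 to 10.9 FPKM, below all Sham and EGR1OV libraries, and those of Aldh1a3 lie at 2.98 to 3.49 FPKM, above them.

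Among the members that convert retinol and retinal, Dhrs3 was lower and Rdh10 higher in H/R than in Sham. Dhrs3 (chr4:144892827-144928209, plus strand) encodes the reductase that returns retinal to retinol. It was at 22.7, 22.1 and 23.0 FPKM in Sham and at 8.85, 10.9 and 8.69 FPKM in H/R. The groups were far apart, and the mean was 2.38-fold lower in H/R, 9.49 ± 1.25 against 22.6 ± 0.459 FPKM (SD, n = 3 each). On the log2(FPKM + 1) scale, which understates changes of low genes, the difference was -1.18. It was the largest fall among 11850 protein-coding genes tested, and 6 genes of small non-coding RNA classes lay lower. The set was chosen for that fall, so its rank is no separate result.

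Rdh10 (chr1:16105774-16133734, plus strand), the oxidase that makes retinal from retinol, was at 39.3, 37.1 and 36.5 FPKM in Sham. It was at 45.2, 47.6 and 45.7 FPKM in H/R, and all H/R libraries were above all Sham libraries. The means were 37.6 ± 1.51 and 46.2 ± 1.295 FPKM, a ratio of 1.23. Dhrs3 and Rdh10 thus stood on opposite sides of Sham. The ratio of Dhrs3 to Rdh10, chosen after the values were seen, was 0.577, 0.595 and 0.629 in Sham and 0.196, 0.229 and 0.190 in H/R.

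Of the enzymes that oxidise retinal to retinoic acid, Aldh1a3 was higher in H/R and the others were close to Sham. Aldh1a3 (chr7:66390890-66427517, minus strand) was at 1.61, 1.45 and 1.19 FPKM in Sham and 3.24, 2.98 and 3.49 FPKM in H/R. The groups did not overlap, and the ratio of means was 2.28. Aldh1a2 (chr9:71215789-71296243, plus strand), the most abundant member, was at 58.6, 63.0 and 59.5 FPKM in Sham and 61.1, 63.5 and 63.4 FPKM in H/R, and these ranges overlapped. Aldh1a1 (chr19:20492715-20643462, plus strand) was at 0.567, 0.546 and 0.773 FPKM in Sham and 0.739, 0.661 and 0.663 FPKM in H/R, again with overlap. Aldh1a1 has a near-identical neighbour, Aldh1a7, at means of 0.529, 0.642 and 0.0775 FPKM for Sham, H/R and EGR1OV, so reads could be split between them and Aldh1a1 is uncertain. Since Aldh1a2 held most of the family's FPKM, the share of Aldh1a3 in the summed Aldh1a FPKM stayed small. It was 2.27% ± 0.354 in Sham and 4.86% ± 0.376 in H/R (SD, n = 3 each).

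Crabp2 (chr3:87948666-87953376, plus strand), the carrier of retinoic acid, was at 0.460, 0.477 and 0.229 FPKM in Sham and 1.59, 0.658 and 1.11 FPKM in H/R. All H/R libraries were above all Sham libraries, but the H/R libraries were spread widely and the values rest on few reads. Cyp26b1 (chr6:84571414-84593908, minus strand), which breaks retinoic acid down, was at 2.93, 2.80 and 2.80 FPKM in Sham and 1.78, 1.79 and 1.90 FPKM in H/R. The ratio of means was 1.56 in favour of Sham, with no overlap.

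The receptors were both somewhat lower in H/R. Rara (chr11:98927818-98974942, plus strand) was at 8.82, 9.72 and 8.65 FPKM in Sham and 7.76, 8.14 and 8.40 FPKM in H/R. Rarb (chr14:16430839-16819156, minus strand) was at 1.56, 1.91 and 1.59 FPKM in Sham and 1.08, 1.24 and 1.06 FPKM in H/R. Neither gene's groups overlapped, and the ratio of means was 1.12 for Rara and 1.495 for Rarb in favour of Sham. Rarb is uncertain, because 34.1% of its exon bases lie opposite exons of Top2b on the other strand and the use of strand in counting is not given in the sources used here. Top2b means were 14.4, 15.0 and 10.4 FPKM for Sham, H/R and EGR1OV.

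As a description only, since this contrast chose the set, 6 of the 9 members lay past the limits used for all genes in H/R against Sham (adjusted p under 0.05 and 1.2-fold), where 4.25% of all 13985 genes lay. These were Aldh1a3, Crabp2 and Rdh10 on the higher side (1.6% of all genes) and Dhrs3, Cyp26b1 and Rarb on the lower side (2.65%). Groups did not overlap for 3 members on the higher and 4 on the lower side, against 11.8% and 21.8% of all genes, 33.6% together. Nothing is read from these counts. Crabp2 lay past the limits under 6 of 17 alternatives and Rarb under 9 of 17. The differences on the log2(FPKM + 1) scale ran from -1.18 for Dhrs3 to 0.81 for Aldh1a3, with a median of 0.05 against -0.03 over all genes tested.

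**Figure D2:**
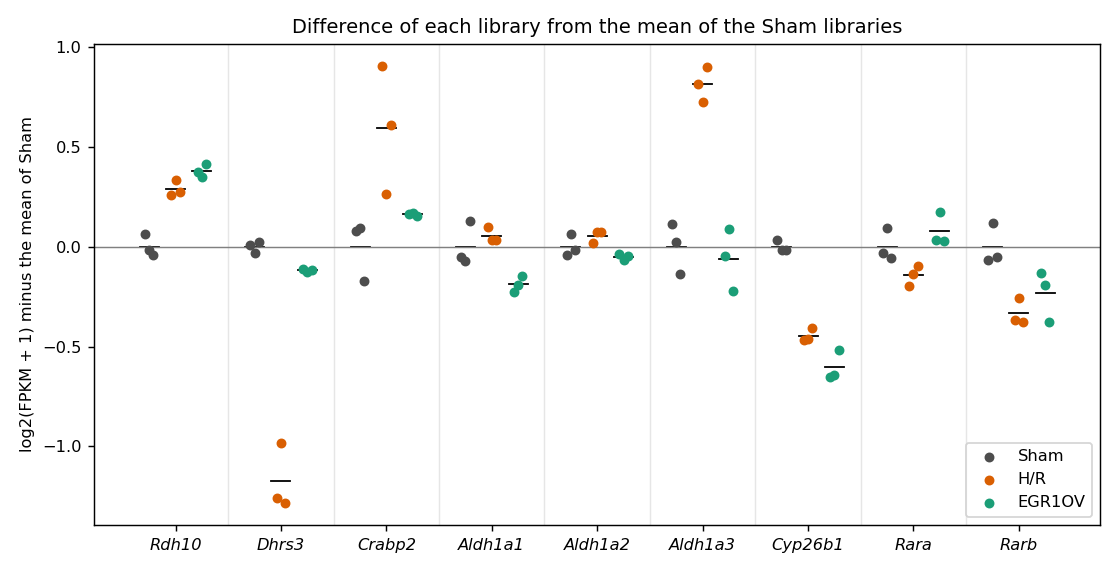
Difference of each library from the Sham mean on the log2(FPKM + 1) scale (y axis) for the 9 genes (x axis). Points are libraries coloured by group, and black bars are group means. Dhrs3 stands at -1.18 in H/R and at -0.12 in EGR1OV, while Cyp26b1 is below 0 in both, at -0.45 and -0.60.

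EGR1OV against Sham asked how the same genes stood when Egr1 was raised without H/R. It shares the Sham libraries with the choice of the members. In the limma test, Cyp26b1 was the 1 of 9 members called at an adjusted p under 0.05 and 1.3-fold, where 16.4% of all genes tested were called, so the share of members called was not above the background. By direction, 9.87% of all genes were called higher and 6.51% lower. Cyp26b1 was at 1.44, 1.46 and 1.69 FPKM in EGR1OV against 2.93, 2.80 and 2.80 FPKM in Sham. It fell 1.86-fold without overlap, a log2 difference of -0.60 (SE 0.057, limma adjusted p = 2.5e-05). It was called under all 17 alternatives that gave it a value.

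Rdh10 passed the p threshold but not the fold threshold. It was at 49.0, 48.1 and 50.4 FPKM in EGR1OV, all above the Sham libraries, and the mean of 49.1 ± 1.16 FPKM was 1.31 times that of Sham. The log2(FPKM + 1) difference of 0.38 (SE 0.035, limma adjusted p = 2.42e-05) fell just short of the 1.3-fold threshold on that scale, and 5 of 18 alternatives called it.

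Dhrs3, in contrast to its H/R level, lay near Sham in EGR1OV. It was at 20.8, 20.6 and 20.7 FPKM, and although all 3 libraries lay below the Sham libraries, the mean was 1.09-fold lower. The log2 difference was -0.12 (SE 0.069, limma adjusted p = 0.194). A two-sided exact permutation test gave p = 0.1, the smallest that 3 against 3 allows, and across alternatives the limma adjusted p ran from 0.00979 to 0.336, with 0 of 18 past 1.3-fold. The ratio of Dhrs3 to Rdh10 was 0.425, 0.429 and 0.412 in EGR1OV. Those ratios lay between the H/R and the Sham libraries and overlapped with neither (exact permutation p = 0.1 against Sham).

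The other 6 members were not called in EGR1OV against Sham. Aldh1a2 was at 58.8, 57.5 and 58.4 FPKM (log2 difference -0.05, limma adjusted p = 0.224). Aldh1a3 was at 1.33, 1.56 and 1.07 FPKM, inside or just below the range of Sham (log2 difference -0.06, limma adjusted p = 0.64). Aldh1a1 was at 0.391, 0.422 and 0.470 FPKM, below all Sham libraries (log2 difference -0.19, limma adjusted p = 0.0853). Of the summed Aldh1a FPKM, Aldh1a3 held 2.203% ± 0.425 in EGR1OV, overlapping with Sham (exact permutation p = 0.7). The share of Aldh1a1 was 0.713% ± 0.0691 against 1.011% ± 0.219 in Sham, with no overlap (exact permutation p = 0.1). Crabp2 was at 0.547, 0.555 and 0.539 FPKM, above Sham but not past the test (limma adjusted p = 0.42).

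Rara was at 9.27, 10.3 and 9.26 FPKM in EGR1OV, overlapping with Sham (log2 difference 0.08, limma adjusted p = 0.294), and its sign turned under quantile normalization (-0.023). Rarb was at 1.44, 1.35 and 1.06 FPKM, all below Sham. Its log2 difference of -0.23 (SE 0.085) had a limma adjusted p of 0.0489 and did not reach 1.3-fold on the log2(FPKM + 1) scale. Top2b, which lies opposite part of Rarb, was also lower in EGR1OV, and its part in the Rarb value was not tested. Without the fold threshold 3 of 9 members passed (Cyp26b1, Rdh10 and Rarb), against 45.9% of all genes tested. Groups did not overlap for 2 members on the higher side and 4 on the lower side, against 31.0% and 24.6% of all genes (55.7% together). The members' median log2 difference was -0.06, against 0.02 over all genes.

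**Figure D3:**
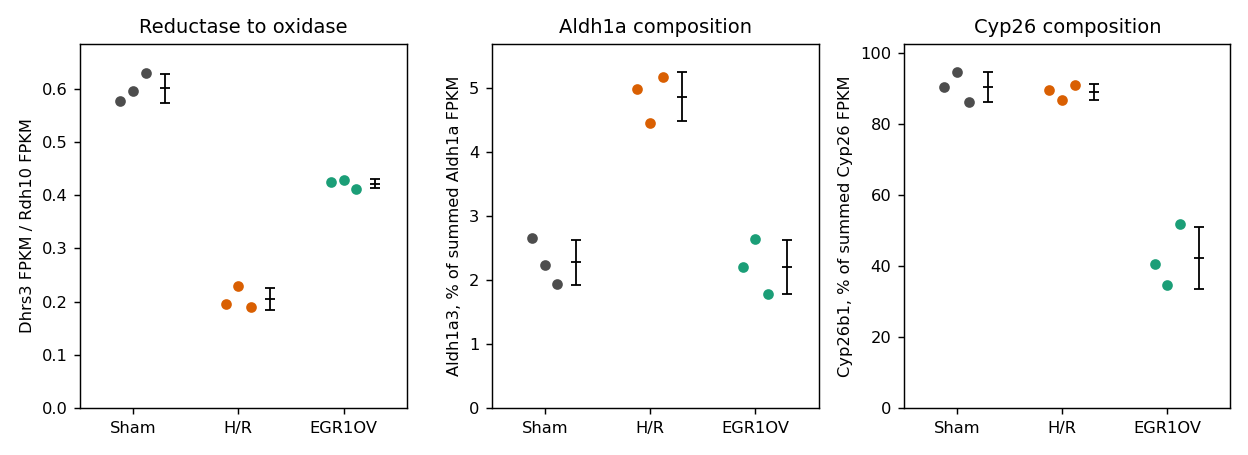
Makeup of the pathway's transcripts by library. The y axes are the ratio of Dhrs3 to Rdh10 FPKM, Aldh1a3 as a percent of summed Aldh1a FPKM, and Cyp26b1 as a percent of summed Cyp26 FPKM; points are libraries and the black mark is the mean ± SD. Dhrs3 to Rdh10 averages 0.601, 0.205 and 0.422 for Sham, H/R and EGR1OV, and Cyp26b1 averages 42.2% of Cyp26 FPKM in EGR1OV.

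EGR1OV was also set against H/R, with which it shares no treatment. These values rest on the same H/R libraries that chose the members, so for Dhrs3 they are a description. Dhrs3 was 2.18 times as high in EGR1OV as in H/R, a log2 difference of 1.06, with no overlap. Besides Dhrs3, 2 members were called at 1.3-fold, Aldh1a3 and Crabp2, both lower, where 18.9% of all genes tested were called, 11.9% higher and 6.94% lower. Aldh1a3 was 2.45-fold lower in EGR1OV (log2 difference -0.87, SE 0.096, limma adjusted p = 6.2e-05) and was called under all 17 alternatives that gave it a value. Crabp2 was 2.04-fold lower (log2 difference -0.43, SE 0.15, limma adjusted p = 0.0383). Crabp2 passed the filter on low values through its H/R libraries, so a difference from H/R was favoured by the filter. The Crabp2 call was lost under 9 of 17 alternatives, among them without H/R replicate 1, where the difference was -0.27 (limma adjusted p = 0.12).

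The remaining members were not called between EGR1OV and H/R. Aldh1a1 was 1.61-fold lower in FPKM without overlap, but its difference of -0.24 on the log2(FPKM + 1) scale (limma adjusted p = 0.0316) was under 1.3-fold, and 2 of 17 alternatives called it (-0.58 with a pseudocount of 0.1 and -0.68 with voom). Rara was higher by 0.22 on the log2 scale (limma adjusted p = 0.00879), and Aldh1a2 (-0.10) and Cyp26b1 (-0.16) were lower (limma adjusted p = 0.0203 and 0.0433), all under 1.3-fold. Rdh10 (log2 difference 0.09) and Rarb (0.10) had limma adjusted p of 0.0642 and 0.364. With no fold threshold 7 of 9 members passed with Dhrs3 and Crabp2 counted, against 51.0% of all genes, and groups did not overlap for 3 members on the higher and 5 on the lower side, against 36.6% and 22.0% of all genes (58.6% together). Over the 9 members the median was -0.10, against 0.05 over all genes tested.

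Of the other genes of the pathway, 62 were listed by role, 57 were in the table and 29 passed the filter. In EGR1OV against Sham 7 of these 29 were called, 3 higher and 4 lower, with a median log2 difference of 0.05 against 0.02 over all genes, of which 16.4% were called, 9.87% higher and 6.51% lower. Of the 3 higher, Stra6 and Cyp26a1 passed the filter only through their EGR1OV libraries, so nothing is read from this count. In H/R against Sham the limma test called 0 of 29, where 4.25% of all genes were called. At an unadjusted p under 0.05 there were 9 of 29, and voom on recovered reads called 2 (Ppard and Ncoa1). No share over all genes was taken for the unadjusted count, so nothing is read from it. Without the fold threshold the receptors Rarg (-0.22), Rxra (-0.13) and Ppard (-0.25) passed, with limma adjusted p of 0.0126, 0.0465 and 0.026. Over all genes 11.7% passed without it.

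In the uptake and binding role, Fabp5 and Lrp2 fell in EGR1OV and Stra6 rose. Fabp5, a carrier that also takes retinoic acid to PPAR-delta, was at 7.55, 7.86 and 8.15 FPKM in Sham and 3.02, 3.10 and 3.05 FPKM in EGR1OV (log2 difference -1.13, SE 0.055, limma adjusted p = 2.55e-07). Lrp2, the megalin receptor that takes up retinol-binding protein in the proximal tubule, averaged 3.60 ± 0.0824 FPKM in Sham and 1.22 ± 0.0476 in EGR1OV (-1.05, limma adjusted p = 1.01e-07). It is also a proximal tubule marker and makes up most of that list's summed FPKM in Sham and EGR1OV. The lower sum in EGR1OV is therefore not separate from the fall of Lrp2. Of the other markers on that list, Aqp1 and Cubn were also lower in EGR1OV, without overlap with Sham. The rest were under 0.5 FPKM in every library. Stra6, the cell surface receptor for retinol-binding protein, averaged 0.515 ± 0.0470 and 0.983 ± 0.0887 FPKM (0.39, limma adjusted p = 0.00191) and is named here after its values were seen. Like Cyp26a1, it passed the filter only through its EGR1OV libraries, with a mean under 0.5 FPKM over the Sham and H/R libraries together.

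Cyp26a1, the best known retinoic acid hydroxylase, rose in EGR1OV while Cyp26b1 fell. It was at 0.103, 0.162 and 0.376 FPKM for Sham, 0.209, 0.245 and 0.159 FPKM for H/R and 1.49, 2.07 and 1.37 FPKM for EGR1OV. The log2 difference from Sham was 1.12 (SE 0.12, limma adjusted p = 5.99e-05). It passed the filter only through its EGR1OV libraries, so it had to differ to be tested. Cyp26c1 was below the filter, at 0 to 0.209 FPKM in Sham and 0.204 to 0.700 FPKM in EGR1OV. Recovered reads per library ran from 3 to 67 for Cyp26a1 and from 0 to 20 for Cyp26c1, so both rest on few reads. As a sum, Cyp26 FPKM was 3.15 ± 0.164, 2.05 ± 0.0527 and 3.69 ± 0.497 for Sham, H/R and EGR1OV. The share held by Cyp26b1 was 90.4% ± 4.13, 89.0% ± 2.16 and 42.2% ± 8.69 in that order (SD, n = 3 each; exact permutation p = 0.1 for EGR1OV against Sham). These sums were chosen after the values were seen.

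Among genes that retinoic acid is known to induce, 2 of 8 tested were called in EGR1OV against Sham, in opposite directions, where 16.4% of all genes were called. Tgm2, tissue transglutaminase, averaged 79.9 ± 0.746 FPKM in Sham and 57.5 ± 4.59 in EGR1OV (-0.47, limma adjusted p = 7.57e-05). Hoxa4 averaged 1.89 ± 0.330 and 2.86 ± 0.255 FPKM (0.42, limma adjusted p = 0.00954), and it fell under the threshold without Sham replicate 3 (0.33) and with quantile normalization (0.37). None of the 5 genes tested for retinol and retinal conversion and none of the 6 receptor coregulators was called in either comparison with Sham by limma. Over all genes, 16.4% were called in EGR1OV and 4.25% in H/R. On the adjusted p alone, 0 conversion genes and 3 coregulators passed in EGR1OV and 0 and 0 in H/R, against 45.9% and 11.7% of all genes. At an unadjusted p under 0.05 there were 1 and 3 in EGR1OV and 3 and 2 in H/R. For these unadjusted counts no share over all genes was taken, so nothing is read from them. The 2 coregulators in H/R were Ncoa1, which voom called, and Ncoa2.

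The receptors that partner or resemble Rara and Rarb were tested as well. In EGR1OV against Sham 0 of 4 were called at 1.3-fold, where 16.4% of all genes were called. Rarg (0.20), Rxra (0.34) and Rxrb (0.31) passed without the fold threshold, as did 45.9% of all genes. In EGR1OV against H/R 11 of 29 pathway genes were called, 7 higher and 4 lower, again with Stra6 and Cyp26a1 among the higher, where 18.9% of all genes were called, 11.9% higher and 6.94% lower. They included Rarg (0.42), Rxra (0.47), Rxrb (0.50) and Ppard (0.38), all 4 receptors tested, which are named after their values were seen. Ppard was only just past 1.3-fold, and no alternatives are given for these calls. Over all genes, the median of this comparison moved from 0.055 to -0.040 under quantile normalization. Rxra, the common partner of the retinoic acid receptors, had means of 9.12, 8.28 and 11.8 FPKM for Sham, H/R and EGR1OV.

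**Figure D4:**
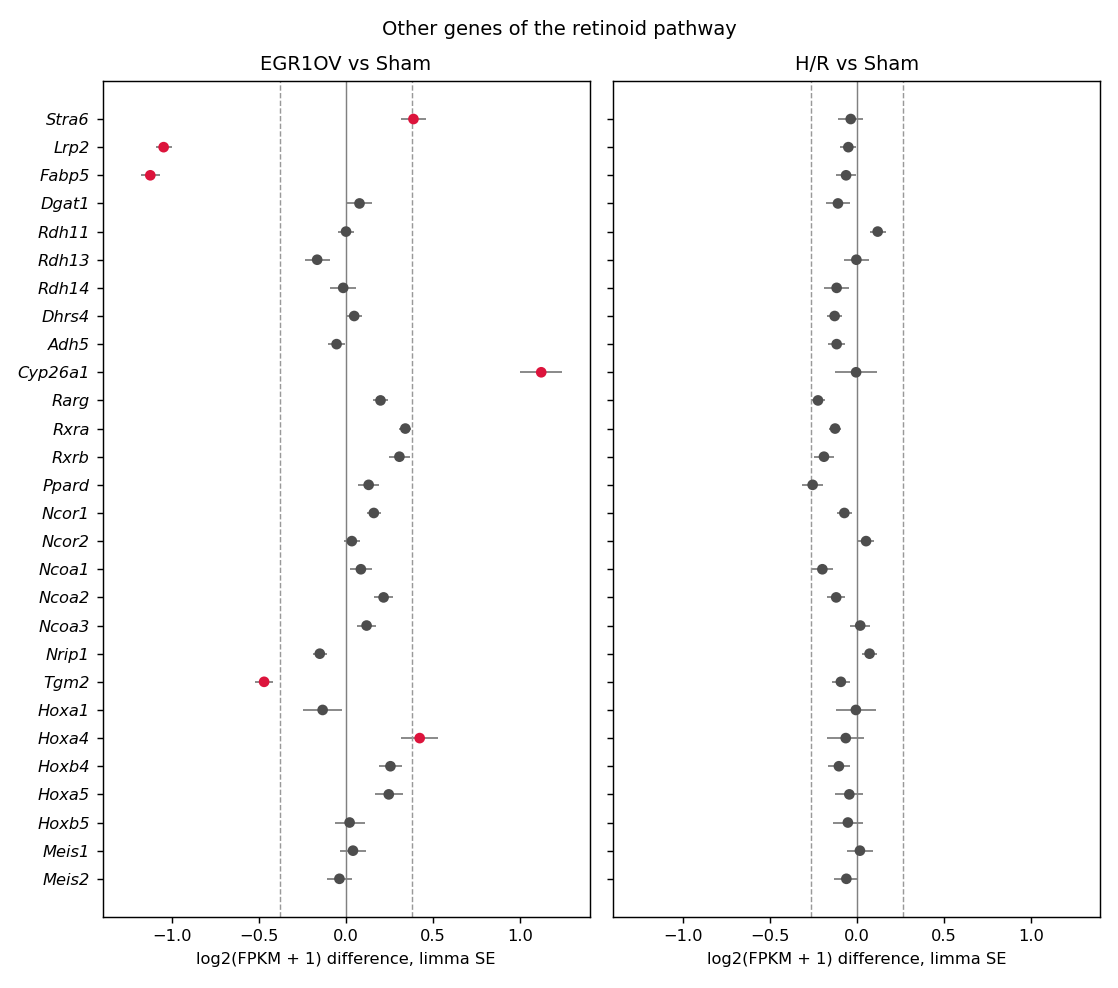
Log2(FPKM + 1) differences (x axis) of other pathway genes tested (y axis) in EGR1OV against Sham and in H/R against Sham. Red points are called genes, bars are limma standard errors, and dashed lines mark 1.3-fold and 1.2-fold. In EGR1OV Fabp5 at -1.13 and Cyp26a1 at 1.12 lie at the ends, and all genes drawn for H/R lie inside the dashed lines.

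Likeness to other genes was measured by Pearson's r of log2(FPKM + 1) over the 9 libraries, among 2091 genes that averaged 5 FPKM or more with group means that differ by at least 1.3-fold. Closest to Dhrs3 were Racgap1 (0.995), Htra2 (0.977), Gdf15 (0.976), Ccna2 (0.966) and Ypel3 (0.961). Closest to Cyp26b1 were Mthfd2 (0.989), Clmn (0.989), Srgap3 (0.966), Dcun1d4 (0.964) and Bex3 (0.957). The 9 points share their 3 groups, so these values describe the pattern of the group means and carry no test. Racgap1, a regulator of cell division, had means of 5.97, 4.59 and 5.79 FPKM for Sham, H/R and EGR1OV, so its range was narrower than that of Dhrs3. Mthfd2, a mitochondrial folate enzyme, averaged 30.8, 23.9 and 21.9 FPKM in the same order.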

How the data were processed

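The authors deposited FPKM per gene and library, with replicates not pooled. The submitters' processing notes name HISAT2 2.1.0, Bowtie2 2.2.3, TopHat2 and mm9, with no roles, whereas positions in the table equal GENCODE M21 (GRCm38) for 94.8% of matched gene IDs, and coordinates here are the table's. Counter, annotation and strand use are not given in the sources used here. Low FPKM values are multiples of what 1 read is worth, and with GENCODE M21 exon lengths 94.0% of 162896 values of 1 to 1000 reads came out whole within 0.02 reads. Read numbers cover counting error only.

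FPKM is not a count, so values were tested as log2(FPKM + 1) by limma 3.58.1 in R 4.3.3 (lmFit and eBayes with trend, two-sided, Benjamini-Hochberg over all genes), with all 9 libraries in the fit and the 13985 genes that averaged 0.5 FPKM or more. Genes were called at an adjusted p under 0.05 and 1.3-fold (EGR1OV) or 1.2-fold (H/R against Sham). Both fold limits follow the study's comparisons with Sham, and 1.3-fold was carried over to EGR1OV against H/R here. The code was tested on simulated data.

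The members, gene lists and tests were chosen with earlier results of these data known. Named are the 9 members and, from each role of the pathway list, up to 3 called genes with the largest change per comparison with Sham, except that 1 gene the rule picks is counted but not reported here. For Dhrs3 and for the member with the largest change in EGR1OV against Sham, the 5 genes most alike are named too. Promoters came from RefSeq tables on GRCm38.p6. Alternatives were other pseudocounts, filters, scalings and fits, no fold threshold and each library left out in turn. limma voom on the recovered reads, and the alternatives of the Dhrs3 to Rdh10 ratio, were chosen after seeing the data.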

Additional observations from a re-analysis of the deposited data

How the results depend on the processing

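Under a pseudocount of 0.1, 2 members were called in EGR1OV against Sham in place of 1, and voom on recovered reads (chosen after seeing the data) called 4. Calls over all genes rose as well, from 2291 to 2883 with that pseudocount and to 3008 with voom. With no fold threshold 3 members passed, against 45.9% of all genes. Requiring a mean of at least 5 FPKM left 4 members tested, with 0 called in EGR1OV against Sham, 1 against H/R and 2 past the thresholds in H/R against Sham, and left 3 called of the other pathway genes in EGR1OV against Sham. With no fold threshold 7 members passed in EGR1OV against H/R, and 15 and 3 other pathway genes passed in EGR1OV and in H/R against Sham. Over all genes, 51.0%, 45.9% and 11.7% passed in the same order. In H/R against Sham a pseudocount of 0.1 called 1 other pathway gene and voom 2, while calls over all genes rose from 594 to 765 and 1008. With a library left out, 1 to 2 members were called in EGR1OV against Sham (2 without Sham replicate 1, EGR1OV replicate 1 or EGR1OV replicate 2), 2 to 3 against H/R (Dhrs3 included), and 4 to 5 were past the thresholds in H/R against Sham. Other pathway genes came to 6 to 7 and 0 to 1 (1 without Sham replicate 2). The log2 difference of Aldh1a3 in EGR1OV against Sham ran from -0.14 to 0.019 over the libraries left out (above 0 without EGR1OV replicate 3), and its share differed by -0.29 to 0.14 percentage points over the libraries left out (0.11 without Sham replicate 1). Rara turned to -0.023 under quantile normalization. The share of Aldh1a1 in H/R minus Sham was -0.062 to 0.15 points over the libraries left out (-0.028 without H/R replicate 1, -0.016 without Sham replicate 1), and as a log2 difference from Aldh1a2 it was -0.00049. The cause of these turns was not tested. Median-ratio scaling moved the higher share of calls over all genes from 37.7% to 58.0% in H/R against Sham and from 63.2% to 52.0% in EGR1OV against H/R. Quantile normalization moved it to 56.5% and 42.5%, and from 60.3% to 45.9% in EGR1OV against Sham. Among the members, depth limits Crabp2 most, with 5 to 34 reads per library. Outside the members, Cyp26a1 (3 to 67 reads) and Cyp26c1 (0 to 20) also rest on few reads.

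Same-numbered libraries showed little shared deviation (correlations -0.021 to 0.062, and 3 of 9 libraries correlated best with their own number). Between Sham and EGR1OV the same-numbered pairs (0.028, 0.062 and 0.040) lay above the other pairs, which reached 0.017. Such small correlations cannot exclude a pairing, and the main fit used none. With the replicate block, 1 member was called in EGR1OV against Sham, 3 against H/R and 5 past the thresholds in H/R against Sham (Crabp2 no longer), and 7 and 0 other pathway genes were called in EGR1OV and H/R against Sham.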
